A study of Mus musculus with 41 samples.

Results

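The histone methyltransferases and demethylases were followed in hippocampal RNA of 41 untreated male C57BL/6J mice, 1 Affymetrix array per mouse. Members were chosen by gene symbol alone, as probe sets with 1 platform symbol starting with Kdm, Kmt2, Kmt5, Setd, Ehmt, Suv39h, Ezh, Nsd, Prmt, Dot1l, Ash1l or Jarid2. The rule found 56 of the 18193 genes that have such a probe set. Nsdhl, an enzyme of cholesterol synthesis, matched by its letters only and was set apart, which left 55 genes with 152 probe sets. Each gene was read through the probe set with the highest mean intensity over the 41 arrays. Ash1l and Suv39h1 were not analysed here.

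Behavioural testing began at 10 weeks of age, and 39 of the mice had complete data on 11 parameters of 5 memory and cognition tests. The labels place 8 mice in a low, 12 in a medium and 5 in a high cognition group, the ones that 2 ranking systems ordered alike. A further 14 mice were ranked inconsistently and 2 had incomplete data. All 5 groups share strain, sex and the test battery, and the labels give no mutant allele, agent or pooling of animals. RNA was taken a month after the last test, so the levels follow the behaviour in time.

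Histone lysine methyltransferases, most of which carry a SET domain, place methyl groups on defined lysines of the histone tails, and the Kdm demethylases remove them. Methylation of H3K4 and H3K36 marks promoters and bodies of active genes, whereas methylation of H3K9 and H3K27 marks silent chromatin. Prmt enzymes methylate arginines. In hippocampal neurons these enzymes are known for their part in memory-related gene regulation, and mutations in several of them cause intellectual disability in people.

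Kdm3a removes mono- and dimethyl marks from H3K9, and among the probe sets chosen for the family it had the smallest p in both comparisons with the high group. The stretch just before its annotated gene start is therefore shown from RefSeq (GRCm38.p6, chr6:71632991-71633167, minus strand, 177 bases with 14 CpG dinucleotides). Capitals mark a GC box (GGGCGG, here on the opposite strand) and a CCAAT box, at bases 105 to 110 and 123 to 127 from the 5′ end as printed.
Kdm3a: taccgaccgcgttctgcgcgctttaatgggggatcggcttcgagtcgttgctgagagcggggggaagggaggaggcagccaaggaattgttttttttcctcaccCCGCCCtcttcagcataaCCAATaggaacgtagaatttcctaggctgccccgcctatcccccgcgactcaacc

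Such CpG-rich starts were frequent in the family. A window of 250 bases before to 50 bases after a listed start was at hand for 44 of the 55 genes. Where several starts were listed, the most upstream was used. It need not be the annotated gene start: for Kdm3a 177 bases of the window lie before that start. The median CpG count of the members' windows was 24, against 7 over the windows of 27025 genes, and the median GC content was 61.5% against 52.7%. The GC box GGGCGG, searched on both strands, was present in 61.4% of the members' windows and in 35.9% of all windows. CCAAT was present in 43.2% against 38.0%, the letters ACGTG in 25.0% against 19.6%, and TGACGTCA in 4.55% against 1.85%. TATAAA was rarer, with 4.55% of the members' windows against 14.2% of all. Each share of 4.55% rests on 2 of 44 windows. The windows of all genes include genes below the brightness filter used below, and those of tested genes were not counted apart. These matches describe letters in a window and no site of binding.

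The deposited intensities were quantile-normalised and expressed as log2(intensity + 16), and 22519 probe sets whose mean reached the median probe set were tested. Of the 55 members 52 passed. Ezhip, an inhibitor of Polycomb repressive complex 2, was left below that level with a mean intensity of 5.35, as were the demethylase Kdm4d with 15.1 and the H3K9 methyltransferase Suv39h2 with 28.6. The chosen probe sets of the 52 genes ranged in mean intensity from 40.3 for Kdm8 to 1144 for Setd7. Brightness depends on the probes as well as on the RNA, so genes are not ordered by it.

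Array medians of the deposited values lay between 22.4 and 55.2. The labels name no batch. The arrays were clustered by 45 bacterial and phage control probe sets and cut into 3 sets, a number that was set and not found. The sets held 8, 10 and 23 arrays, and 4 of the 5 high arrays lay in the largest. The array of medium replicate 9 went against its tissue label. Its mean over 8 hippocampal neuron markers was 6.82 on the log2 scale, where the medium group had a median of 8.99 and the high arrays lay between 8.92 and 9.03. Its mean over striatal markers was 8.87, where the high arrays ended at 7.26, the low at 7.42 and the inconsistent at 7.47. Its log2 difference between the 3′ and 5′ control probe sets of Actb was 1.10. There the high and low arrays ended at 0.59 and the inconsistent at 0.57. The same difference for Gapdh was -0.50 on this array, inside the high range of -0.53 to -0.49. Means over the 8 tested choroid plexus markers ran from 6.17 to 6.81 in the high arrays. They ran from 6.30 to 9.81 in the medium and from 6.03 to 9.90 in the low arrays. By these means 3 low and 4 medium arrays but no high array were bright. Means over 5 general neuron markers ran from 11.87 to 11.97 in the high, 11.92 to 12.19 in the medium and 11.87 to 12.12 in the low arrays. Oligodendrocyte markers averaged 10.63 in the high, 10.67 in the medium and 10.68 in the low group, astrocyte markers 9.95, 9.97 and 9.97, microglia markers 8.84, 8.78 and 8.80, and endothelial markers 7.55, 7.54 and 7.59. The part of these markers in the results was not tested beyond the values given below. In bulk tissue, fewer cells of a type and less RNA per cell cannot be told apart.

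No member passed an adjusted p of 0.05 (limma, Benjamini-Hochberg over all probe sets tested) between high and low mice, where 0.00888% of all probe sets did. At an unadjusted p under 0.05, 6 members were higher and 1 was lower in the high group, which is 13.5% of the 52 against 8.16% of all probe sets. The median difference of the members was 0.03 (log2), beside 0.0051 over all probe sets, and 30 of 52 lay above 0. Between high and medium mice again no member was called, against 0.0311% of all probe sets. Here 4 members were higher and 4 lower at an unadjusted p under 0.05, or 15.4% against 13.2% of all, with a median of -0.0007 beside 0.0053. Between medium and low mice 0% of all probe sets were called, and 1 member (1.92%) had an unadjusted p under 0.05, against 3.1% of all. The share in that last comparison lay below that of all probe sets, and the share in high against medium lay near it. The 2 comparisons with the high group share its 5 arrays.

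**Figure D1:**
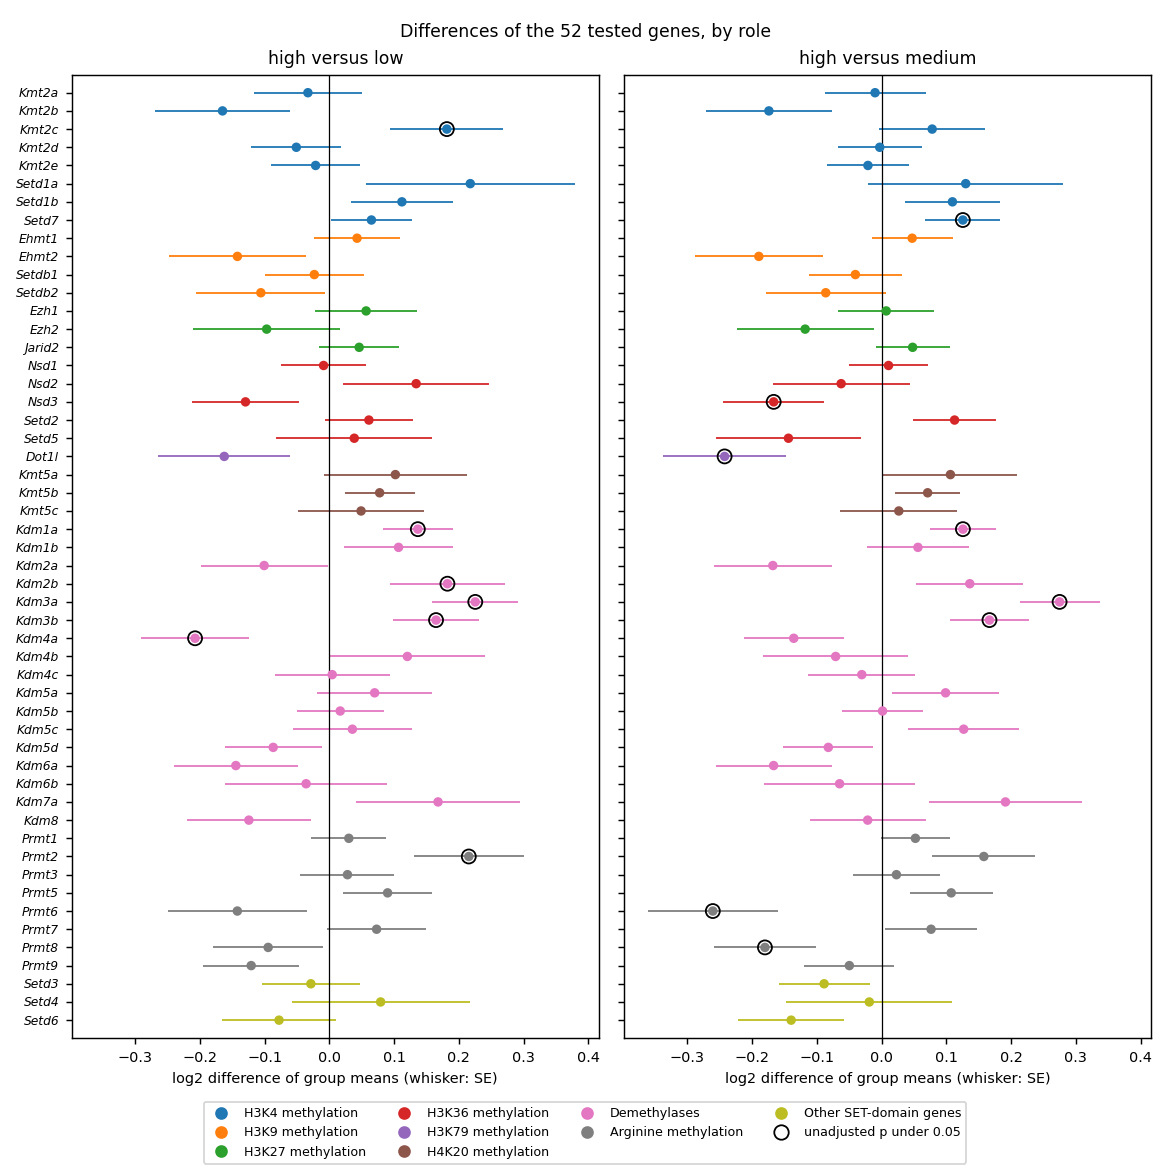
Differences of group means (log2) for each of the 52 genes, high minus low on the left and high minus medium on the right. Points are coloured by role, whiskers are standard errors and rings mark an unadjusted p under 0.05; 7 genes are ringed on the left and 8 on the right, and the point of Kdm3a lies farthest right in both.

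Among the demethylases, Kdm3a stood at 8.79, 8.71, 8.71, 8.61 and 8.64 in the 5 high arrays. In the low arrays Kdm3a ranged from 8.39 to 8.53 with a median of 8.49, and in the medium arrays from 8.15 to 8.64 with a median of 8.45. Every high array lay above every low array, a separation seen in 0.502% of all probe sets, while the high and medium arrays overlapped through medium replicate 3. The difference from the low group was 0.23 ± 0.07 (SE, n = 5 and 8), a fold of 1.17, with an unadjusted limma p of 0.00214 and an adjusted p of 0.49. The difference from the medium group was 0.27 ± 0.06 (SE, n = 5 and 12), a fold of 1.21 with a 95% interval of 0.15 to 0.40 on the log2 scale and an adjusted limma p of 0.0995. Neither passed the threshold. Without overlap between high and medium arrays there were 0.395% of all probe sets, and 0% between medium and low; Kdm3a was in neither group. The 14 inconsistently ranked mice spanned 8.27 to 8.75 for Kdm3a, which covers most of the range of all 3 ranked groups.

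The Kdm3a difference from medium mice depended on the settings in both directions. Without normalisation between arrays it was 0.11 with an adjusted limma p of 0.76. It was 0.36 with an adjusted limma p of 0.0101 when arrays were only centred on their medians. These 2 settings moved all probe sets together, to a median of -0.169 and of 0.066, beside 0.0053 in the analysis reported. With arrays weighted by their fit the Kdm3a difference was 0.24 with an adjusted limma p of 0.021. Without medium replicate 3 it was 0.30 with an adjusted limma p of 0.0492, whereas without medium replicate 9, which gave the lowest Kdm3a value, it was 0.25 with 0.0864. Within the largest set of arrays the Kdm3a difference was 0.24 from medium (4 against 5 arrays) and 0.21 from low mice (4 against 4). In the set of 10 it was 0.40 and 0.30 with a lone high array, and the set of 8 held no high array. With the neuron marker mean as a covariate, a choice made after seeing the data, Kdm3a differed by 0.21 from medium mice with an adjusted limma p of 0.489. Kdm3a is read by 1 probe set, so no other probe set of the gene could be set beside it.

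**Figure D2:**
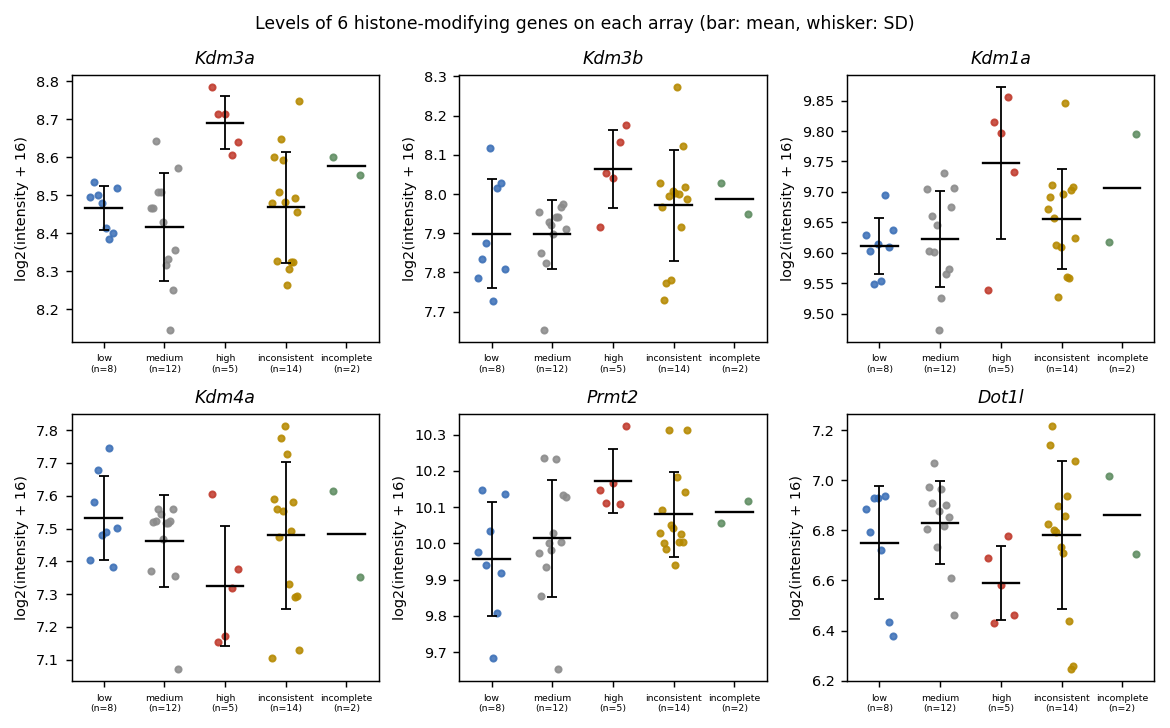
Level of 6 histone-modifying genes on each of the 41 arrays, as log2(intensity + 16), by group. Points are arrays, bars are means and whiskers SDs (no whisker for the 2 incomplete arrays); the 5 high arrays lie above all 8 low arrays for Kdm3a, and the groups overlap for the other 5 genes.

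Kdm3b, the paralogue of Kdm3a, measured 7.92, 8.05, 8.04, 8.13 and 8.18 in the high arrays. Kdm3b ran from 7.73 to 8.12 in the low arrays (median 7.85) and from 7.65 to 7.98 in the medium arrays (median 7.93). One high array fell inside the medium range, and the low range covered 3 of the high arrays. The Kdm3b differences were 0.16 ± 0.07 from low and 0.17 ± 0.06 from medium (SE), with adjusted limma p-values of 0.554 and 0.254. Without normalisation between arrays the second was -0.01, under a shift of all probe sets to a median of -0.169.

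Kdm1a, the flavin-dependent H3K4 demethylase also called LSD1, measured 9.54, 9.82, 9.80, 9.86 and 9.73 in the high arrays. Of these values 4 were above the highest low array, 9.69, and high replicate 1 was below the lowest low array, 9.55. The Kdm1a difference was 0.14 ± 0.05 from low and 0.13 ± 0.05 from medium mice (SE), with adjusted limma p-values of 0.554 and 0.298. The second tested probe set of Kdm1a differed less, by 0.07 and 0.04. Centring arrays on their medians called Kdm1a against medium mice (0.23, adjusted limma p 0.0430). Kdm3a, Prmt2 and Setd7 were the other members called there. No normalisation gave -0.03 for Kdm1a. The median of all probe sets was 0.066 with centring and -0.169 without normalisation.

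Kdm4a, which acts on H3K9 and H3K36, was the member lower in high than in low mice at an unadjusted p under 0.05. Kdm4a measured 7.60, 7.15, 7.17, 7.32 and 7.38 in the high arrays and from 7.38 to 7.74 in the low arrays, median 7.50. Of the high arrays 4 were below the low range, replicate 5 by less than 0.01, and replicate 1 was inside it. The Kdm4a difference was -0.21 ± 0.08 (SE), with an adjusted limma p of 0.554. Kdm2b, an H3K36 demethylase that recruits a Polycomb complex to CpG islands, was 0.18 ± 0.09 higher in the high than in the low group (unadjusted limma p 0.0489), and its second probe set was 0.12 higher. Over all 17 tested demethylases 11 lay above 0 against low mice and 9 against medium mice.

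The chosen probe sets of the other demethylases gave no p under 0.05 in these comparisons. Kdm7a, which removes H3K9 and H3K27 methylation, was 0.17 ± 0.13 above low and 0.19 ± 0.12 above medium mice (SE). Its other tested probe sets had differences of 0.18 and 0.23 from low and of 0.36 and 0.27 from medium mice. The X-linked H3K27 demethylase Kdm6a measured 7.28 ± 0.04 (SD, n = 5) in high, 7.44 ± 0.16 (SD, n = 12) in medium and 7.42 ± 0.23 (SD, n = 8) in low arrays. Kdm6b, another H3K27 demethylase, differed by -0.04 ± 0.13 and -0.06 ± 0.12 (SE) from low and medium, while its other tested probe set gave 0.20 and 0.46. The X-linked H3K4 demethylase Kdm5c differed by 0.04 ± 0.09 from low and 0.13 ± 0.09 from medium mice (SE) in its chosen probe set, and its Y-linked counterpart Kdm5d by -0.09 ± 0.07 and -0.08 ± 0.07.

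A second probe set of Kdm5c gave larger differences and, against low mice, a smaller p than any chosen probe set; it is described here after its values were seen. It measured 7.17, 7.40, 7.32, 7.48 and 7.32 in the high arrays, 6.64 to 7.34 in the low arrays (median 6.87) and 6.47 to 7.17 in the medium arrays (median 6.92). Of the high arrays 4 exceeded every medium array, and low replicate 5 was the low array that reached into the high range. This Kdm5c probe set was 0.42 ± 0.11 above low mice (SE, n = 5 and 8, unadjusted limma p 0.000491, adjusted 0.435) and 0.43 ± 0.10 above medium mice (SE, n = 5 and 12, unadjusted limma p 0.000175, adjusted 0.0995). Neither passed the threshold, although the second did with arrays centred on their medians (0.47, adjusted limma p 0.0142) and with weighted arrays (0.40, adjusted limma p 0.0199). It was 0.24 without normalisation (adjusted limma p 0.627) and 0.26 with the neuron marker mean as a covariate (adjusted limma p 0.511). Without medium replicate 9 it was 0.41. The shifts of all probe sets given above for centring and for no normalisation apply here too. The third tested probe set of Kdm5c differed by 0.08 ± 0.10 from low and 0.21 ± 0.10 from medium mice (SE). The 3 tested probe sets, of 9 for the gene, thus shared a sign and not a size in these comparisons. Across arrays the second probe set followed the others weakly, with r = 0.335 with the third and 0.156 with the chosen one. The mean of the 3 differed by 0.18 from low and 0.26 from medium mice, with adjusted limma p-values of 0.54 and 0.128.

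Of the 8 genes with a role in H3K4 methylation, 4 were above 0 and 4 below in both comparisons with the high group. Kmt2c, a COMPASS-type methyltransferase of enhancers, measured 8.99, 9.10, 8.93, 9.04 and 9.05 in the high arrays and 8.62 to 8.98 in the low arrays (median 8.84). Of the high arrays 4 exceeded every low array. The Kmt2c difference was 0.18 ± 0.09 (SE, unadjusted limma p 0.0472, adjusted 0.608), but 3 further probe sets of the gene gave -0.12, 0.03 and 0.14. Setd7, which monomethylates H3K4 and other proteins, was 0.13 ± 0.06 higher in high than in medium mice (SE, unadjusted limma p 0.0398). Kmt2a differed by -0.03 ± 0.08 and -0.01 ± 0.08 from low and medium mice, and Kmt2d by -0.05 ± 0.07 and -0.0029 ± 0.06 (SE). Kmt2b, a further trithorax-type enzyme, was at -0.17 ± 0.10 (SE) in both comparisons, with unadjusted limma p-values of 0.126 and 0.0859. Setd1a, the catalytic subunit of another COMPASS complex, had the widest spread of all members, from 6.05 to 7.75, and differed by 0.22 ± 0.16 and 0.13 ± 0.15 (SE).

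Read through the chosen probe sets, 3 of 4 tested H3K9 methyltransferases lay below 0 in both comparisons with high mice, none with a p under 0.05. Ehmt2, the G9a enzyme, measured 9.31 ± 0.10 (SD, n = 5) in high, 9.50 ± 0.17 (SD, n = 12) in medium and 9.45 ± 0.25 (SD, n = 8) in low arrays. Its dimerisation partner Ehmt1 differed by 0.04 ± 0.07 and 0.05 ± 0.06 (SE), and Setdb1 by -0.02 ± 0.08 and -0.04 ± 0.07. The second tested probe set of Setdb1 had the other sign, 0.08 and 0.09, and that of Ehmt2 the same sign, -0.27 and -0.18. In the H3K27 group, the Polycomb methyltransferase Ezh2 measured 5.94 ± 0.22 (SD, n = 5) in high, 6.06 ± 0.20 (SD, n = 12) in medium and 6.04 ± 0.21 (SD, n = 8) in low arrays. Ezh1, its relative in non-dividing cells, measured 8.85, 8.84 and 8.79 in the same order. The accessory subunit Jarid2 differed by 0.05 ± 0.06 (SE) in both comparisons. Its further probe sets lay on opposite sides, at -0.08 and 0.07 from low and at -0.11 and 0.11 from medium mice.

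Dot1l, the H3K79 methyltransferase, measured 6.69, 6.43, 6.58, 6.78 and 6.46 in the high arrays. Its medium arrays spanned 6.46 to 7.07 around a median of 6.87, and its low arrays 6.38 to 6.94 around 6.84. All high values of Dot1l lay below the medium median, yet the ranges overlapped. Dot1l differed by -0.24 ± 0.10 from medium (SE, unadjusted limma p 0.0170, adjusted 0.284) and by -0.16 ± 0.10 from low mice. Its second probe set gave -0.10 and -0.16. Among the H3K36 methyltransferases, Nsd3 was 0.17 ± 0.08 lower in high than in medium mice (SE, unadjusted limma p 0.0409), and 4 further probe sets of Nsd3 gave 0.13, 0.06, -0.18 and -0.07. Setd2, the H3K36 trimethylase, differed by 0.06 ± 0.07 and 0.11 ± 0.06, and Nsd1 by -0.01 ± 0.07 and 0.01 ± 0.06 (SE). The chosen probe sets of the H4K20 enzymes Kmt5a, Kmt5b and Kmt5c lay above 0, with no unadjusted p under 0.05. They were between 0.05 and 0.10 against low mice and between 0.03 and 0.11 against medium mice. A further probe set of Kmt5a had the other sign, -0.18 from low and -0.09 from medium mice. Further probe sets of Kmt5b gave 0.05 and -0.03 from low and 0.03 and 0.05 from medium mice.

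Among the arginine methyltransferases, Prmt2 measured 10.15, 10.11, 10.17, 10.11 and 10.32 in the high arrays, 9.68 to 10.15 in the low arrays (median 9.96) and 9.65 to 10.24 in the medium arrays (median 10.00). The lowest high value of Prmt2 exceeded the medians of both other groups, but the ranges overlapped. The Prmt2 difference was 0.22 ± 0.09 from low (SE, adjusted limma p 0.554) and 0.16 ± 0.08 from medium mice, while the second probe set gave 0.05 and -0.02. Prmt6, which methylates arginine 2 of histone H3, measured 6.23, 5.87, 6.39, 6.29 and 6.28 in the high arrays and 6.20 to 6.82 in the medium arrays (median 6.47). Its difference from medium was -0.26 ± 0.10 (SE, adjusted limma p 0.274), and its second probe set had the other sign, 0.14. Prmt8, an enzyme anchored at the membrane and known for its expression in brain, measured 9.32, 8.99, 9.19, 9.21 and 9.26 in the high arrays and 9.13 to 9.85 in the medium arrays. The Prmt8 difference was -0.18 ± 0.08 (SE, adjusted limma p 0.33), and -0.14 without medium replicate 9, which held the value of 9.85. Prmt1, the main enzyme of asymmetric arginine methylation, differed by 0.03 ± 0.06 and 0.05 ± 0.05, and Prmt5, that of symmetric methylation, by 0.09 ± 0.07 and 0.11 ± 0.06 (SE). The 3 remaining SET-domain genes Setd3, Setd4 and Setd6 had differences between -0.14 and 0.08.

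Between medium and low mice the smallest p belonged to the H3K36 methyltransferase Nsd2, which was 0.20 ± 0.09 higher in the medium group (SE, unadjusted limma p 0.0395, adjusted 0.998). Nsd2 ranged from 7.63 to 8.37 in medium and from 7.61 to 8.30 in low arrays, so the groups overlapped almost entirely. Its other tested probe sets gave -0.19 and 0.07, and the mean of all 3 gave 0.02. Without medium replicate 9 the difference was 0.17, and no member then had an unadjusted p under 0.05. The next were the H3K9 demethylase Kdm4b at 0.19 ± 0.10 and Setd5 at 0.18 ± 0.10, followed by Kmt2c at 0.10 ± 0.07, Prmt6 at 0.12 ± 0.09 and the JmjC protein Kdm8 at -0.10 ± 0.08 (SE).

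A moderated F test over the 3 ranked groups called no member, against 0.00888% of all probe sets, and had an unadjusted p under 0.05 for Kdm3a, Kdm3b, Kdm1a and Prmt6, in a table where 8.61% of all probe sets did. An ordered slope over low, medium and high called none, against 0.00444% of all. Its unadjusted p was under 0.05 for Kdm4a, Kdm3a, Prmt2, Kdm1a, Kmt2c and Kdm3b, where 5.93% of all probe sets passed. The slope was 0.09 ± 0.04 (log2 per class, SE) for Kdm3a and -0.10 ± 0.04 for Kdm4a.

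Within the largest spike-in set, with 4 high, 5 medium and 4 low arrays, each of the 8 genes listed next had the sign given above. These genes were named for small p-values in the same arrays, and the set holds 4 of the 5 high arrays. A shared sign was therefore likely in advance and is no separate evidence. There Kdm3b was 0.18 above low and 0.21 above medium arrays, Kdm1a 0.16 and 0.13, Prmt2 0.17 and Kmt2c 0.20 above low arrays, while Kdm4a was at -0.30 from low arrays. Against medium arrays Prmt6 was at -0.26, Dot1l at -0.17 and Prmt8 at -0.16. In the set of 10 the lone high array, replicate 1, gave other signs for Kdm1a (-0.04 from low and -0.02 from medium), Kdm3b (-0.08 from low) and Kdm4a (0.03 from low). Between medium and low mice Nsd2 was at 0.28, 0.26 and 0.07 in the sets of 8, 10 and 23, and Kdm4b at 0.03, 0.02 and 0.34.

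Where a gene had other tested probe sets, these often but not always took the sign of the chosen one. Over 30 genes with 46 such probe sets, 67.4% shared the sign in high against low, 65.2% in high against medium and 60.9% in medium against low. Of all 98 tested probe sets of the members, 9.18%, 15.3% and 5.1% had an unadjusted p under 0.05 in the same order. Over all tested probe sets of the arrays the shares were 8.16%, 13.2% and 3.1%. Among the 46 probe sets that were not chosen, 2 were higher in high than in low mice at that p, in Kdm5c and Kdm5a. That is a smaller share than the 8.16% over all probe sets. Against medium mice 5 were higher, in Kdm5c (2 of them), Kdm5a, Kdm6b and Kdm7a, and 2 were lower, in Kmt2e and Nsd3. Together they make a share near the 13.2% over all probe sets. The probe set of the H3K4 demethylase Kdm5a was at 0.31 and 0.36 from low and medium mice, and that of Kmt2e at -0.18 from medium mice. Between medium and low mice 2 were higher, in Kmt2e and Kdm5a, and 2 lower, in Nsd1 and Setd1b, where 3.1% of all probe sets passed.

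Genes that work beside these enzymes were read from 7 lists of complex subunits, related enzymes and methyl-donor enzymes, 65 of whose 71 genes with a probe set were tested. None was called in any of the 3 comparisons. At an unadjusted p under 0.05, 3 were higher and 2 lower against low mice, 7.69% of the 65, and 3 higher and 5 lower against medium mice, 12.3%. Both shares lay near those of all probe sets. The H3K9 partner and methyl-donor lists held no gene at an unadjusted p under 0.05 in either comparison. Rbbp5, a core COMPASS subunit, was 0.19 ± 0.08 and 0.18 ± 0.07 higher in high mice, and Hcfc1, which associates with COMPASS, was at -0.22 ± 0.08 and -0.15 ± 0.07 (SE). Eed, the Polycomb subunit that reads H3K27 trimethylation, differed by 0.16 ± 0.07 from medium mice. The LSD1 partner Hmg20b differed by -0.22 ± 0.11 and the arginine methyltransferase Carm1 by -0.18 ± 0.08 from medium mice, and the H3K9 demethylase Phf8 by 0.15 ± 0.07 from low mice (SE). The Polycomb genes Phc1 and Phc2 lay on opposite sides, at -0.14 ± 0.07 and 0.16 ± 0.07 from low mice.

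Over all 41 arrays the chosen probe sets of the members had a median SD of 0.15 (log2), beside 0.165 over all tested probe sets. Setd1a had the highest SD with 0.34, followed by Dot1l and Kdm7a with 0.23 each. Kmt5b had the lowest with 0.08, and Prmt1 and Kdm1a followed with 0.08 and 0.09.

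**Figure D3:**
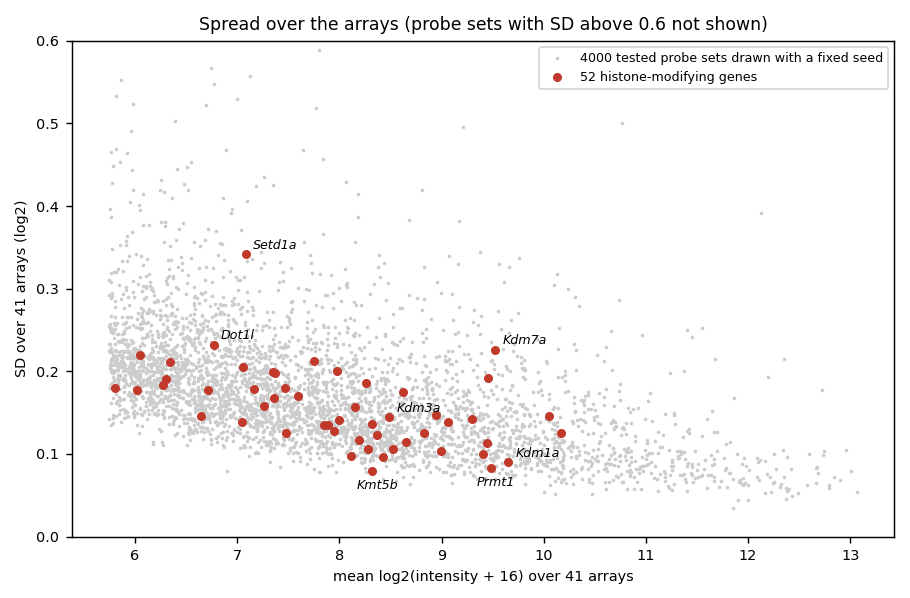
SD over the 41 arrays (log2) against mean log2(intensity + 16), for the 52 genes in red and for 4000 tested probe sets in grey. The members lie within the grey cloud, with Setd1a at an SD of 0.34 as the highest red point and Kmt5b at 0.08 as the lowest.

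Among themselves the members varied with little common direction. The 1326 pairs had a median Pearson r of -0.0033 over the 41 arrays, and 33 pairs (2.49%) had an adjusted permutation p under 0.05, 28 of them positive. The highest was Prmt1 with Prmt5 (r = 0.70, rho = 0.64, adjusted permutation p = 0.00442 for r). It was 0.78, 0.72 and 0.61 within the sets of 8, 10 and 23 arrays, and 0.58 without the 2 arrays farthest from the median. Kdm3a with Kdm7a followed (r = 0.70, rho = 0.63, the same adjusted permutation p), with 0.13, 0.84 and 0.79 within the sets and 0.60 without the 2 farthest arrays. Kdm7a with Setd7 had an r of 0.68 and a rho of 0.70 at that p, with 0.76, 0.44 and 0.74 within the sets and 0.74 without the 2 farthest arrays.

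The lowest was Kdm2b with Kmt2e (r = -0.63, rho = -0.63, adjusted permutation p = 0.00442 for r), at 0.03 in the set of 8 and at -0.88 and -0.44 in the others, and at -0.64 without the 2 farthest arrays. Kmt2b with Prmt2 had r = -0.55 and rho = -0.57 (adjusted permutation p = 0.0133 for r), with -0.43 without the 2 farthest arrays and 0.03, -0.70 and -0.44 within the sets. Kdm5c with Kdm6b had r = -0.54 and rho = -0.55 (adjusted permutation p = 0.0236 for r), with -0.42 without the 2 farthest arrays and -0.51, -0.80 and -0.36 within the sets. All 6 pairs kept their sign without medium replicate 9, with r between 0.65 and 0.76 for the positive and between -0.61 and -0.46 for the negative ones. The pairs share the arrays and their normalisation. The smallest p that 100000 permutations can give is 1e-05.

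**Figure D4:**
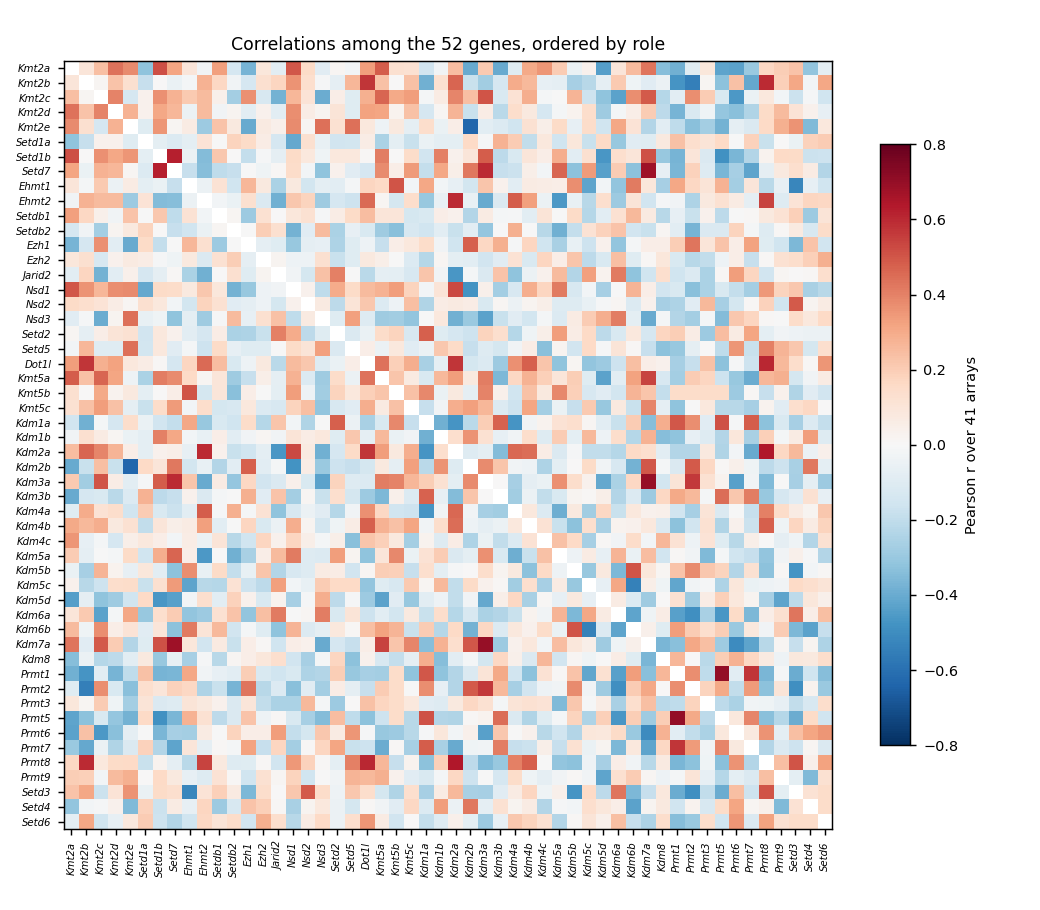
Pearson r over 41 arrays for every pair of the 52 genes, ordered by role, from blue (negative) to red (positive). Most cells are pale, around the median of -0.0033, and the darkest red cells are Prmt1 with Prmt5 and Kdm3a with Kdm7a.

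Because Kdm3a had the smallest p among the chosen probe sets in both comparisons with high mice, its level was set beside 11 measures of each array, over all 41 arrays. It ran against the general neuron marker mean (r = -0.51, rho = -0.43, adjusted permutation p = 0.00275 for r), with r of 0.16, -0.76 and -0.69 within the sets of 8, 10 and 23, and -0.45 without the 2 farthest arrays. It also ran against the striatal marker mean (r = -0.51, rho = -0.41, adjusted permutation p = 0.0022 for r), with 0.58, -0.66 and -0.70 within the sets and -0.34 without the 2 farthest arrays. Both relations had a positive r in the set of 8 arrays. The other 9 measures, choroid plexus markers included (r = -0.15), had adjusted permutation p-values above 0.05. What these relations contribute to the difference between groups was not tested beyond the neuron covariate value given above for Kdm3a. No Kdm3a difference with the striatal mean as a covariate is given here.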

How the data were processed

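RNA of 41 hippocampi was measured on Affymetrix arrays, 1 per mouse. The authors deposited linear intensities, from 0.0112 to 13549, and their notes on processing, per the submitters, list Partek and RMA with no version; at which step RMA entered is not stated there. The 41 arrays were quantile-normalised over all 45101 probe sets, controls included, and log2(intensity + 16) was taken. The 64 control probe sets were then left out of the tests. The 22519 probe sets at or above the median mean were tested on the 25 ranked arrays with limma 3.58.1 in R 4.3.3 (1 mean per group, eBayes, Benjamini-Hochberg, threshold 0.05). The number of arrays limits the precision. The limma p-values set group differences against the spread between mice, each read on 1 array. Differences between mice and between arrays cannot be told apart in that spread. The steps were tested on simulated data, where calls were required only for changes larger than those of the members.

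Symbols come from the platform annotation: 34945 probe sets have 1 symbol, 932 several and 9160 none. Array correlations were at least 0.949. All 55 members were in the RefSeq gene table. The members and lists were chosen with earlier results of these data known.

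Genes named in the text were those with the 6 smallest p-values per comparison, any with an adjusted p under 0.05, non-overlapping high and low arrays or extreme level or spread, and a list of well-known enzymes; further genes at an unadjusted p under 0.05, and those named beside their group, were added after their values were seen. Marker lists covered choroid plexus, oligodendrocyte, astrocyte, microglia, endothelium, striatum, hippocampal neuron and neuron. Alternatives covered filter, offset, normalisation, model, spike-in sets, probe set choice, choroid-bright arrays, replicate numbers, and each replicate left out. Replicate numbers in the labels were not taken to pair mice. Same-numbered arrays had correlations of their deviations from -0.17 to 0.14. In high against medium, 3 of 5 such pairs were the best match, and 0 were in each of the other comparisons.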

Additional observations from a re-analysis of the deposited data

Results flagged for a closer look

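In each ranked group with up to 10 arrays, the highest and lowest array of every member, the 3 below the brightness filter included, and of Nsdhl was set against Dixon's 95% value, which chance exceeds in about 1 of 20 groups. Of 112 combinations of gene and group, 9 (8.04%) passed. Low replicate 5 was flagged for 2 genes, with Kdm6a at 7.99 (log2), where the other low arrays ended at 7.39, and Setdb2 at 6.73, where the others ended at 6.36. Low replicate 8 was flagged for 3 genes, with Kdm4b at 6.34 below the next value of 6.83, Kmt2b at 7.34 below 7.57, and Kdm5b at 8.63 above 8.45. High replicate 5 had Prmt2 at 10.32, above the 10.17 of the next array, and Setd3 at 9.31, below 9.43. In high replicate 3 Kdm6a was at 7.35, while the other high arrays lay between 7.25 and 7.26. In high replicate 1 Nsdhl was at 8.26, below 8.55.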

How the results depend on the processing

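No member was called through its chosen probe set in high against low or medium against low mice under any alternative. In high against medium mice members were called only with arrays centred on their medians (4) or array weights (1), and 0 to 1 with each replicate left out, the 1 being Kdm3a without medium replicate 3. Centring also called 2 genes of the partner lists in that comparison and 1 member in the F test. Over all probe sets the 2 calls in high against low became 5 with centring, 4 with the choroid plexus mean as a covariate and 1 with the stricter brightness filter, a variance trend with robust fit, all 41 arrays in the fit, inconsistent replicate 2 moved to the medium group (its labels also call it medium), 1 probe set per gene or the mean of a gene's probe sets. They became 0 without normalisation, with only the compared groups, in the largest spike-in set alone, with the replicate block or without choroid-bright arrays. The 7 calls in high against medium became 967 with centring, of which 95.3% were higher against 57.1% in the analysis reported, 354 with array weights, 23 with all 41 arrays, 15 with the robust fit and 11 with the stricter brightness filter. They became 1 without a filter, in the largest set alone, or with the neuron or striatum mean as a covariate, and 0 without normalisation, with only the compared groups, with the replicate block or without choroid-bright arrays. They were 0 to 16 with each replicate left out: 0 without medium replicate 4, 7 or 10 or high replicate 2, 3 or 4, 1 without medium 8, 3 without high 5, 4 without medium 1 or high 1, 12 without low 5 or 6, 15 without medium 12 and 16 without medium 3. Directions reversed for Kdm3b (-0.0109) and Kdm1a (-0.026) in high against medium without normalisation, where all probe sets had a median of -0.169, and for Kdm8 in medium against low without choroid-bright arrays (0.0263). With centring all probe sets had a median of 0.066 in high against medium. Over the settings with all replicates, high minus medium ran from 0.11 to 0.36 for Kdm3a and -0.45 to -0.06 for Prmt6. It ran from -0.45 to -0.15 for Dot1l and -0.34 to -0.05 for Prmt8. High minus low ran from 0.06 to 0.27 for Kmt2c, and medium minus low from 0.02 to 0.31 for Nsd2. The cause was not tested. The covariates were chosen after seeing the data.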
